A study of Mus musculus with 2 samples.

Results

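A CpG reads the same on both strands of DNA, so that each CpG offers 2 cytosines whose methylation can be measured separately. Of the 756270 CpGs covered in both libraries, 70667 (9.34 %, 95 % Wilson confidence interval 9.28 to 9.41 %) were covered on both strands, and these CpGs are described here. They were found as a covered plus strand cytosine with a covered minus strand cytosine at the next base, without regard to methylation. Reduced representation bisulfite sequencing (RRBS) had been carried out on mouse embryonic fibroblasts (MEFs) of the strain C57BL/6 that were either wildtype (wt) or labelled ESR2 -/- (βerko), lacking the gene of oestrogen receptor β. DNA of 3 batches was pooled for each genotype and 1 library was made from each pool, so there were no replicates, no spread between cultures could be estimated, and each comparison of genotypes is one of 2 libraries. Read numbers were used only at positions that are differentially methylated (DMPs), and the depth of other positions is unknown.

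Maintenance methylation copies the pattern of the parental strand onto the new strand after replication, through Uhrf1, which recognises CpGs methylated on 1 strand, and the methyltransferase Dnmt1. A CpG methylated on 1 strand is called hemimethylated. RRBS cuts DNA with MspI at CCGG, whatever the methylation of the inner cytosine, fills in the cut ends with unmethylated nucleotides, and reads each fragment inwards from its ends. Both strands of a CpG are therefore read from different molecules, and each value is a percentage over many molecules, so that the method does not show whether a single DNA molecule is methylated on both strands.

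Coverage of both strands arose in 2 ways. Of the CpGs, 33743 (47.7 %) were the CpG of an MspI site, where the plus strand is read from the fragment on the right and the minus strand from the fragment on the left. The other 36924 (52.3 %) lay inside a fragment and were read from both of its ends. Of these, 99.8 % were in fragments of at most 70 bases, and of all covered positions 99.8 % lay within 35 bases of the MspI end from which they were read, as for a read of 36 bases. A fragment shorter than the read lets the read run into the filled-in end, which concerned 3188 CpGs at MspI sites beside a fragment of fewer than 36 bases. Values with and without these sites are given below.

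The sequences that follow, from the plus strand of the genome build NCBIM37 (mm9), carry the patterns described. The first 6 are fragments of 35 bases that bound 8 CpGs with the largest possible strand difference in both libraries, shown with the MspI sites at both ends in capitals.
Near Gorab (chr1:165366998-165367036): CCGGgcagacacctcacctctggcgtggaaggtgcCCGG
Uck2, intron (chr1:169160181-169160219): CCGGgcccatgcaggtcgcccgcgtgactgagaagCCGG
Near Tbpl2 (chr2:23979369-23979407): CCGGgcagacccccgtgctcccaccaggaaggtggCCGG
Zmynd8, intron (chr2:165664264-165664302): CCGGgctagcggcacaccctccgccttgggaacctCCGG
Near 1700017G19Rik (chr3:39720898-39720936): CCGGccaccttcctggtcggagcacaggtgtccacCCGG
Near Cd5l (chr3:87124076-87124114): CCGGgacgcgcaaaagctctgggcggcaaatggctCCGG
The fragments near Gorab and Tbpl2 had the same base at 28 of 39 positions, and every other pair of the 6 at 12 to 20. The next 4 are whole fragments whose CpG in capitals gained methylation on 1 strand and lost it on the other.
Pnpla8, intron (chr12:45322878-45322923): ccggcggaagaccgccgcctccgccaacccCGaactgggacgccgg
Bloc1s3, coding exon (chr7:20092737-20092793): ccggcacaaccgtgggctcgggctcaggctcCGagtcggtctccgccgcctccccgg
Near Dlx4 (chr11:95063734-95063771): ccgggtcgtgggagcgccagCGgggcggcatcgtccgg
Rhpn1, intron (chr15:75539558-75539598): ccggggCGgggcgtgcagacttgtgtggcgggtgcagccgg
The last 4 hold an MspI site, in capitals, that changed almost completely on both strands at high depth, in Gata3 and Tbx5 towards loss and in Gbas and Ntsr1 towards gain. The bases to the right of the cut carry the plus strand reads and those to the left the minus strand reads.
Gata3, intron (chr2:9805119-9805190): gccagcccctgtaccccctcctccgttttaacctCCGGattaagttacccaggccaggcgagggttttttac
Tbx5, intron (chr5:120287466-120287537): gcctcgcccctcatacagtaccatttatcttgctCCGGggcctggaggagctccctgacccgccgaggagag
Gbas, intron (chr5:130250122-130250193): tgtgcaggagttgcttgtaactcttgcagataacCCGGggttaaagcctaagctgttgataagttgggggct
Ntsr1, intron (chr2:180262498-180262569): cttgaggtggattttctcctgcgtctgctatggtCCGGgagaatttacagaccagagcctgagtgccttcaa

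CpGs covered on both strands lay in CpG-rich DNA and were less methylated than the rest. Within 100 bp on either side there was a median of 18 CpGs, compared with 12 around positions of CpGs covered on 1 strand. Mean methylation over their 141334 positions was 32.8 % in wt and 29.6 % in βerko MEFs, and over the 685603 positions covered on 1 strand only it was 42.3 and 40.7 %. In wt 58.7 % of these positions were below 20 % methylation, and in βerko MEFs 63.4 %, against 48.5 and 51.3 % on CpGs covered on 1 strand. βerko minus wt averaged -3.26 percentage points at CpGs covered on both strands and -1.61 points at the others. These means were not tested, because each genotype had 1 library.

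In both libraries the strands carried the same mean level. In wt MEFs the plus strand averaged 32.9 % and the minus strand 32.8 %, and in βerko MEFs both averaged 29.6 %. At single CpGs the median absolute difference between strands was 1.80 points in wt and 1.35 points in βerko MEFs, and the strands were less than 5 points apart at 67.4 and 72.4 % of the CpGs. Across CpGs, which are not independent replicates and share fragments and reads, Pearson's r between strands was 0.937 in wt and 0.934 in βerko MEFs (n = 70667). Low on both strands, below 20 %, were 39446 CpGs in wt and 42819 in βerko MEFs, and above 80 % on both strands were 15205 and 13993. The map of strand levels shows both populations at the ends of the diagonal.

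**Figure D1:**
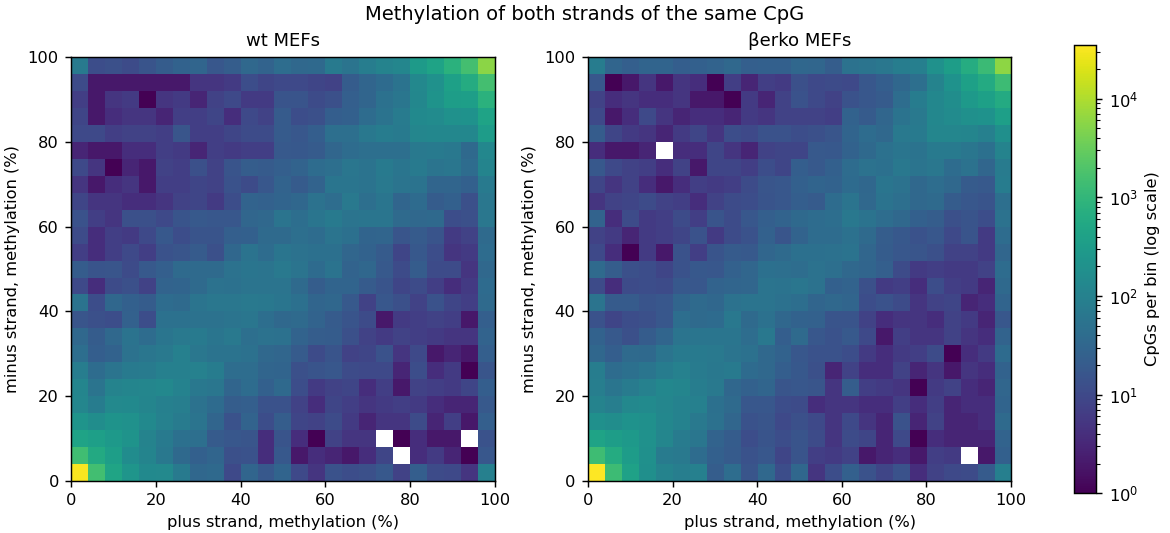
Methylation (%) of the plus strand (x axis) and of the minus strand (y axis) of the 70667 CpGs in wt (left) and βerko MEFs (right), with the number of CpGs in bins of 4 points as colour on a log scale and empty bins in white. Most CpGs lie at the bottom left or the top right corner, and small numbers of CpGs fill the other corners.

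Strand-discordant CpGs, with strands at least 20 points apart, were 6546 in wt (9.26 %, Wilson interval 9.05 to 9.48 %), and in βerko MEFs they were 5603 (7.93 %, 7.73 to 8.13 %). With strands at least 40 points apart the shares were close, at 3.28 % in wt and 3.38 % in βerko MEFs, and no interval was computed for them. Neither strand was favoured, as the minus strand was higher at 3309 of them in wt and the plus strand at 3237, and in βerko MEFs at 2813 and 2790. Orientation to the gene made little difference to the mean. At 46643 CpGs in genes of known orientation, none beside a short fragment, the mean of coding strand minus template strand was -0.101 points in wt and -0.207 in βerko MEFs. Among the discordant ones the template strand was higher at 1927 and the coding strand at 1816 in wt, and in βerko MEFs at 1713 and 1553. In promoters these numbers were 454 and 382 in wt, and 404 and 314 in βerko MEFs. These counts were not tested. Among the autosomes and X, the discordant share in wt ran from 7.46 to 10.5 %, with 10.2 % on X, and chromosome Y, with 2 CpGs, was left out of this range.

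Discordant CpGs were concentrated at middle levels. Without MspI sites beside short fragments, of CpGs with a mean of both strands from 40 to 60 %, 39.6 % were discordant in wt (n = 3629) and 42.5 % in βerko MEFs (n = 3183). At 5 to 20 % the shares were 9.38 and 8.64 %, and at 80 to 95 % they were 14.1 and 12.1 %. A mean below 5 or above 95 % leaves no room for strands 20 points apart, so that the shares of 0 % there are no measurement. The same limit applies to all shares near the ends of the scale, and counting error is also largest at middle levels.

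**Figure D2:**
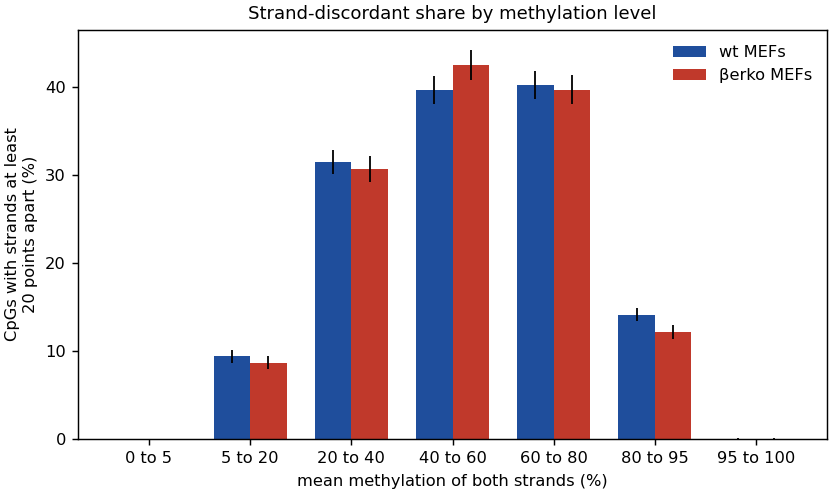
Share of CpGs with strands at least 20 points apart (y axis, %) by the mean methylation of both strands (x axis, %) in wt (blue) and βerko MEFs (red), without MspI sites beside short fragments, with 95 % Wilson confidence intervals. The share is highest between 40 and 80 %, near 40 % in both libraries, and 0 by arithmetic in the outermost classes.

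Discordant shares of genomic features differed, and so did their levels. Without MspI sites beside short fragments, 5.58 % of promoter CpGs (between 500 bp before and 100 bp after a transcription start) were discordant in wt, 10.1 % of exonic, 8.43 % of intronic and 14.8 % of intergenic CpGs. In βerko MEFs these shares were 4.70, 8.87, 7.23 and 12.4 %. Mean methylation in wt was 11.3 % in promoters and 58.6 % in intergenic DNA, and 10.7 and 29.2 % of the CpGs there had a mean from 20 to 80 %. Among CpGs at these middle levels the order changed, since 40.6 % were discordant in promoters (95 % Wilson confidence interval 38.7 to 42.5 %), 37.2 % in exons, 34.5 % in introns (32.7 to 36.2 %) and 36.5 % in intergenic DNA. In βerko MEFs promoters also had the highest share at middle levels, 44.0 % against 33.9 to 38.7 % in the other features.

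Opposite strands, with 1 below 20 % and the other above 80 %, were found at 461 CpGs in wt and 612 in βerko MEFs, of which 240 were opposite in both libraries. Opposite CpGs were thus more frequent in βerko MEFs, the reverse of the order at 20 points. At 240 of these 240 CpGs the same strand was the methylated one in both libraries. They were spread unevenly over the kinds of site. MspI sites beside a fragment shorter than 36 bases held 140 of them, or 4.39 % of such sites (95 % Wilson confidence interval 3.73 to 5.16 %), whereas 60 lay inside fragments (0.163 %) and 40 at other MspI sites (0.131 %). Of the 61 CpGs with strands 100 points apart in both libraries, 60 were at MspI sites beside a short fragment.

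At these sites the low strand was the one that the short fragment's reads reach at its filled-in end. With 1 strand in that position, it was the low one at 99 of 99 CpGs, and at the remaining 41 CpGs both neighbouring fragments were short. The size of the difference varied with the length of the short fragment. When the left-hand fragment had 35 bases, the minus strand was higher than the plus strand by 17.4 points in wt (SE 1.97 over 295 CpGs) and by 19.2 points in βerko MEFs (SE 2.04). At 36 bases the difference was -0.653 points in wt (SE 0.849 over 253 CpGs) and -1.63 in βerko MEFs (SE 0.755). Right-hand fragments gave the mirror image, with -17.2 points in wt and -16.1 in βerko MEFs at 35 bases, and 0.473 and -0.0256 points at 36. From 34 down to 30 bases the differences were smaller than at 35. In wt the difference was 9.39 points beside left-hand fragments of 34 bases and 6.42 points at 33, and at 30 to 32 bases, also shorter than the read, it was 0.0438 to 1.34 points (SE 0.891 to 4.20). Beside right-hand fragments of 30 to 32 bases it was -2.65 to 0.296 points in wt. At 32 bases βerko MEFs had 2.54 points on the left (SE 0.873) and -2.69 points on the right (SE 0.914). Levels were low beside left-hand fragments of 30 to 33 bases, at 8.53 and 12.2 % on the strands in wt. Where the minus strand was above 80 % there in wt, the plus strand had a median of 66.67 % (n = 31). At 35 bases this median was 0 % (n = 54). In βerko MEFs these medians were 5.125 % (n = 24) and 0 % (n = 64). Beside fragments of 4 to 29 bases the difference in wt was 6.97 points on the left and -4.94 points on the right. Why it varied among fragments shorter than the read was not tested. The standard errors are over CpGs of 1 library and not over replicates.

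**Figure D3:**
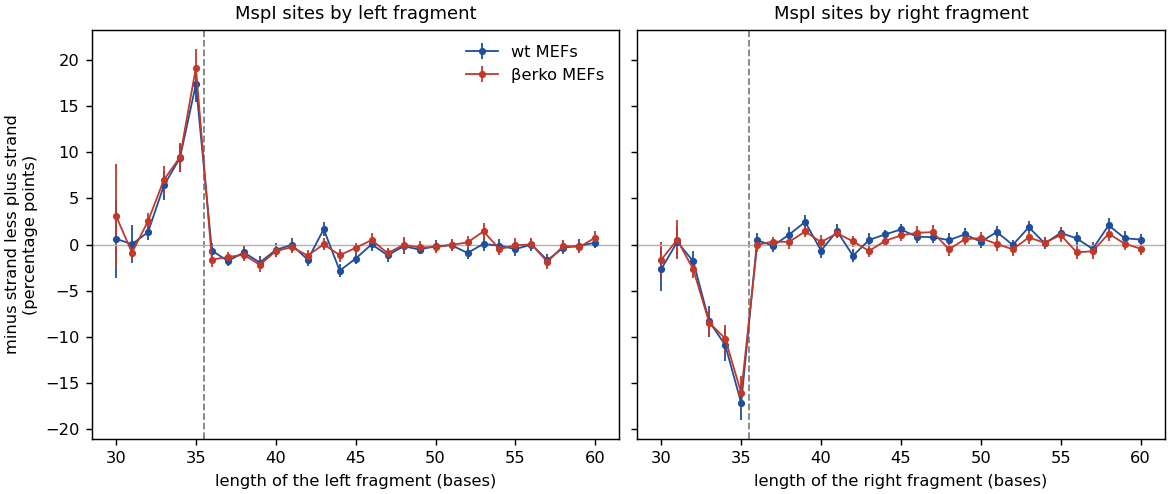
Mean difference between strands, minus strand less plus strand in percentage points (y axis), at MspI sites by the length of the left-hand (left) or right-hand fragment (right) in bases (x axis), the fragment on the other side having at least 36 bases. Points are means over the CpGs of 1 library with the standard error over CpGs, in wt (blue) and βerko MEFs (red). The dashed line separates lengths below 36 from longer ones, where the difference stays near 0. Below 36 it is largest at 35 bases (17.4 and -17.2 points in wt). It is smaller at 30 to 32, with 2.54 and -2.69 points at 32 bases in βerko MEFs.

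The length of the fragment that carries the strand's own reads went with the size of the difference. Where the neighbouring fragment had 30 to 35 bases and the strand's own fragment more than 220 bases, the strand reached at the filled-in end averaged 2.43 % in wt and the other strand 43.3 % (n = 354), and in βerko MEFs these were 1.49 and 41.6 %. Of the 114 such CpGs with the other strand above 80 % in wt, 106 were below 20 % on the strand at the filled-in end. With an own fragment of 36 to 220 bases, both strands were closer, at 10.1 and 13.6 % in wt (n = 1827), and 31 of 141 CpGs fell below 20 %. Beside fragments of fewer than 30 bases, 5 of 75 did.

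The 8 of these 61 that come first in genome order all lay at MspI sites beside a fragment of 35 bases. Each had 100 % on 1 strand and 0 % on the other in wt as in βerko MEFs. They include both ends of the fragment near Gorab, at 165366999 and 165367034 on chromosome 1, where the plus strand was methylated at the left end and the minus strand at the right end. The fragments beyond these ends measure 7776 and 368 bases. Both ends of the fragment in the intron of Uck2, which codes for a uridine-cytidine kinase, at 169160182 and 169160217, had the same arrangement, with outer fragments of 681 and 316 bases. The other 4 were the left ends of the fragments near Tbpl2, in Zmynd8, near 1700017G19Rik and near Cd5l. All 4 were methylated on the plus strand and unmethylated on the minus strand. The fragments to their left measure 28, 1965, 14 and 870 bases in this order. Near Tbpl2 and near 1700017G19Rik both strands thus lay at a filled-in end, and the plus strand still had 100 %. None of the 8 had a deposited read number.

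Strand opposition that lasted in both libraries was also seen away from short fragments, at 100 CpGs. The 8 with the largest differences there, chosen after the values had been seen, reached 96.0 to 100 points in both libraries. At 53731640 on chromosome 14, in intergenic DNA inside a fragment of 48 bases, the plus strand had 0 % and the minus strand 100 % in both libraries. Of the CpGs in the promoter of Cdc5l, which codes for a component of the spliceosome, 3 belonged to this group. Their plus strand had 0 to 0.94 % in wt and 0 to 1.03 % in βerko MEFs, and their minus strand had 100 % in both. The promoter of Wnk1, a kinase that regulates ion transport, had a CpG with 100 % on the plus strand and 1.64 % on the minus strand in wt, and 100 and 0 % in βerko MEFs. A CpG in the promoter of Msx1, a homeobox gene, had 100 and 3.96 % in wt, and 100 and 1.80 % in βerko MEFs. The remaining 2 lay in intergenic DNA, where the CpG nearest to Ttc27 had 100 % on the plus strand and 2.15 % on the minus strand in wt, and the CpG nearest to Otol1 had 0 and 100 %.

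Smaller strand differences lasted from library to library too. Of the discordant CpGs, 2722 were discordant in both libraries, which are 41.6 % of those in wt and 48.6 % of those in βerko MEFs. The same strand was the higher one at 2562 of them (94.1 %, 95 % Wilson confidence interval 93.2 to 94.9 %), and at 160 the strands changed places. Without MspI sites beside short fragments, 2345 were discordant in both and 2195 kept their orientation (93.6 %). Of the CpGs that were concordant in wt, 4.49 % were discordant in βerko MEFs. These shares were not matched for level. Of all CpGs with a mean from 20 to 80 % in βerko MEFs, 39.4 % were discordant there. Concordant in both libraries were 61240 CpGs (86.7 %).

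Discordance extended along fragments. With at least 2 discordant CpGs inside a fragment, the same strand was higher at all of them in 585 of 695 fragments in wt (84.2 %, Wilson interval 81.3 to 86.7 %), and in βerko MEFs in 547 of 594 (92.1 %, 89.6 to 94.0 %). CpGs of a fragment are read in the same reads, so these are not independent observations. Strands of the same CpG were nonetheless closer than neighbouring CpGs of the same strand. At 36913 CpGs inside fragments, the nearest CpG read on the plus strand, at a median distance of 4 bp, differed by at least 20 points at 12.3 % in wt and 10.5 % in βerko MEFs, whereas the other strand of the same CpG did so at 9.54 and 7.84 %.

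The mean loss of methylation in βerko MEFs was of like size on both strands. βerko minus wt averaged -3.28 points on the plus strand (SD 18.5 over CpGs) and -3.25 points on the minus strand (SD 18.5). A fall of at least 20 points was seen on the plus strand at 8005 CpGs (11.3 %) and on the minus strand at 8058 (11.4 %), beside 10.4 % of all covered positions. Both strands fell by that much at 5466 CpGs (7.73 %), which are 51.6 % of the 10597 that fell on either strand. Increases of at least 20 points were fewer, 3612 on the plus and 3715 on the minus strand, beside 6.81 % of all covered positions. Both strands rose at 2048 CpGs (2.9 %), 38.8 % of the 5279 that rose on either. The changes on the strands were less than 20 points apart at 89.3 % of the CpGs and had a Pearson's r of 0.737 across CpGs (n = 70667). Both strands share the same 2 libraries, so their agreement concerns different reads and not different cultures.

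**Figure D4:**
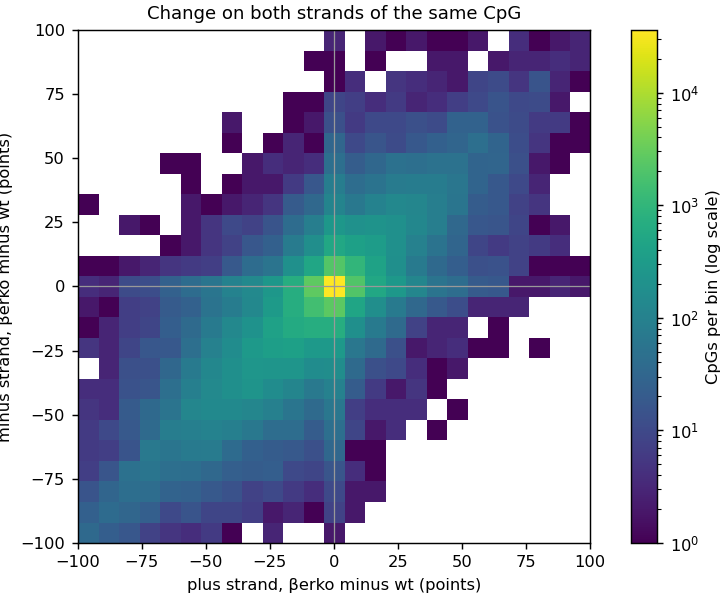
Change in methylation, βerko minus wt in percentage points, of the plus strand (x axis) and of the minus strand (y axis) of the 70667 CpGs, with the number of CpGs in bins of 8 points as colour on a log scale. CpGs with large changes lie along the diagonal, more of them towards loss, with 5466 that fell and 2048 that rose by at least 20 points on both strands.

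MspI sites kept the change of both strands together more often than CpGs inside fragments. Falls on either strand were shared by both at 57.0 % of MspI sites without a short neighbour (95 % Wilson confidence interval 55.6 to 58.3 %) and at 47.6 % of CpGs inside fragments (46.2 to 49.02 %), and increases at 47.6 % (45.8 to 49.4 %) and 29.4 % (27.6 to 31.3 %). Beside short fragments the shares were 27.8 and 12.4 %. The kinds of site were not matched for depth or level. In wt the plus strand averaged 42.6 % at MspI sites without a short neighbour and 26.4 % inside fragments. Changes of at least 20 points in opposite directions were found at 145 CpGs (0.205 %).

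A full loss, from above 80 % in wt to below 20 % in βerko MEFs, was seen on the plus strand at 571 CpGs and on the minus strand at 612. Among all covered positions 0.728 % met this definition. Both strands did at 286 CpGs (0.405 %), or 31.9 % of the 897 with a full loss on either (95 % Wilson confidence interval 28.92 to 35.01 %). For a full gain, which 0.249 % of all covered positions showed, the numbers were 124 and 132, and 42 CpGs gained on both strands (0.0594 %), 19.6 % of 214 (14.9 to 25.5 %). A full loss on 1 strand with a full gain on the other was seen at 0 CpGs. Full losses on both strands comprised 65 CpGs in promoters, 83 in exons, 69 in introns and 69 in intergenic DNA, and full gains 3, 7, 20 and 12. In this order the features held 22.7, 29.02, 24.1 and 24.1 % of these losses, and 7.14, 16.7, 47.6 and 28.6 % of these gains. Of all CpGs covered on both strands they held 34.8, 25.4, 24.2 and 15.6 %. These shares were not matched for level.

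Where only 1 strand changed fully, the other had mostly moved the same way. At 611 CpGs with a full loss on 1 strand, the median of the other strand was 80 % in wt, while in βerko MEFs it was 21.4 %, and this strand fell by at least 20 points at 534 (87.4 %, 95 % Wilson confidence interval 84.5 to 89.8 %). Such a fall was seen at 10.4 % of all covered positions, and at 15.6 % of those above 80 % in wt. At 172 CpGs with a full gain on 1 strand, the other strand rose by at least 20 points at 125 (72.7 %, 65.6 to 78.8 %), compared with 6.81 % of all covered positions and 3.58 % of those below 20 % in wt. Its median was 25.5 % in wt and 78.6 % in βerko MEFs. Counted over all 1183 strand positions with a full loss, those changed on both strands included, the other strand fell at 1106 (93.5 %), and over all 256 with a full gain it rose at 209 (81.6 %).

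These shares rose with depth, and more so for gains. Over all these positions, by the lower read number of both libraries on the changed strand, the other strand of a full loss fell at 89.1 % of positions with 4 to 9 reads, 93.9 % with 10 to 19 and 96.0 % with 20 or more. Opposite full gains the shares were 58.8 % (95 % Wilson confidence interval 47.0 to 69.7 %; n = 68), 83.6 % (72.4 to 90.8 %; n = 61) and 92.9 % (87.1 to 96.2 %; n = 127). For gains inside fragments the other strand rose at 64.6 % of 65 positions, and at MspI sites without a short neighbour at 89.7 % of 184. These kinds of site were not matched for depth. PCR reads are not independent molecules, so that read numbers do not count molecules. All intervals treat CpGs, positions or fragments as independent draws, although these can share reads. They cover neither the counting error of reads nor the spread between cultures.

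At MspI sites beside short fragments a full change on both strands was rare, with 2 of 28 CpGs for loss and 0 of 7 for gain, an upper 95 % Wilson limit of 35.4 %. Of 23 such CpGs with a full loss on 1 strand and a single strand at the filled-in end, the change was on the other strand at 18. Of 7 with a full gain it was on the other strand at 5.

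Read numbers of both strands were available at 313 CpGs, with more than 4 reads on each strand in each library. These CpGs changed fully on both strands, which by itself keeps their strands less than 20 points apart. With Fisher's exact test (two-sided, Benjamini-Hochberg adjusted), 0 of 313 (0.0 %) differed between strands in wt and 0 of 313 (0.0 %) in βerko MEFs. At an unadjusted p below 0.05 there were 2 and 8. Median strand differences were 3.85 and 3.26 points. The test compares reads of a library and not genotypes. At CpGs with a full loss on both strands the median depth was 19 reads on the plus and 21 on the minus strand in wt, and 56.5 and 50.5 in βerko MEFs.

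The full losses with the most reads on both strands were at MspI sites. The CpG at 9805154 on chromosome 2, in an intron of Gata3, a transcription factor of T cell and organ development, had 100 % of 73 reads on the plus strand and 100 % of 88 on the minus strand in wt. In βerko MEFs it had 11.8 % of 102 and 13.1 % of 107 reads. An intron of Tbx5, a T-box factor of heart and forelimb, held the CpG at 120287501 on chromosome 5, which fell from 90.6 % of 64 and 90.5 % of 63 reads to 0 % of 80 and 0 % of 127. Near Hoxa13, at 52220786 on chromosome 6, methylation was 87.0 and 92.7 % in wt (69 and 82 reads) and 4.48 and 4.76 % in βerko MEFs (67 and 63 reads). Near March5 and in the promoter of Arhgap27, the strands went from 93.6 to 96.1 % in wt down to 7.81 to 18.7 % in βerko MEFs. All 5 thus had strands that differed by at most 6.48 points in either library.

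Of the full gains, the deepest was at 130250157 on chromosome 5 in an intron of Gbas, which rose from 12.5 % of 96 and 8.79 % of 91 reads to 94.5 % of 110 and 92.6 % of 94. In an intron of Ntsr1, the neurotensin receptor gene, the CpG at 180262533 on chromosome 2 had 0.86 % of 116 and 4.76 % of 63 reads in wt, and 91.1 % of 79 and 88.3 % of 60 reads in βerko MEFs. The remaining 3, in the promoter of Gm8582, in an intron of Rilpl1 and near Mrps23, had 5.80 to 12.9 % in wt and 85.2 to 98.0 % in βerko MEFs.

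Of the 6 largest changes in opposite directions on the strands, 5 lay inside a fragment. In the intron of Pnpla8, a phospholipase gene, the CpG at 45322908 on chromosome 12 had 37.5 % on the plus and 57.1 % on the minus strand in wt, and 85.7 and 10.2 % in βerko MEFs. In the coding exon of Bloc1s3, a subunit of the complex that forms lysosome-related organelles, the plus strand of the CpG at 20092768 on chromosome 7 went from 56 to 0 % and the minus strand from 11.1 to 55.6 %. Near Dlx4 the plus strand went from 50 to 9.52 % and the minus strand from 0 to 66.7 %, and in Rhpn1 from 40 to 0 % and from 12.5 to 68 %. The promoter of Patz1, a zinc finger gene, held an MspI site beside a fragment of 6 bases, where the plus strand went from 71.4 to 11.1 % and the minus strand from 29.4 to 75 %. The last was in an untranslated exon of Gnas, with 56.7 and 38.5 % in wt, and 16.9 and 100 % in βerko MEFs. Read numbers of these positions were not used here, so that the counting error of these values is unknown.

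Full losses on both strands fell in 188 genes and full gains in 30. Hoxd9, a homeobox gene of the limb and trunk axis and 1 of the genes followed up in the study, had the most losses, 6 of its 8 CpGs. Over these 8 CpGs the plus strand averaged 96.4 % and the minus strand 90.7 % in wt, and 4.15 and 2.18 % in βerko MEFs, and both strands fell by at least 20 points at 8 of 8. Nbea, a gene of neuronal membrane traffic, followed with 5 of 19 CpGs. At these 5, methylation was 86.7 to 100 % in wt, at 13 to 43 reads, and 0 % on both strands in βerko MEFs, at 40 to 85 reads. Runx3, a transcription factor gene, also had 5, among 24 CpGs. Its promoter CpG at 134708447 on chromosome 4 went from 100 % on both strands (9 and 8 reads) to 2.15 and 1.27 % (93 and 79 reads).

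Esrrg, Gm11476, Cgref1, Nkx6-2, Pitx1 and Tnxb had 4 such CpGs each, and Obsl1 was the first in genome order of those with 3. In Pitx1, a homeobox gene of the hindlimb, both strands fell at 12 of 18 CpGs and rose at 1, at 55930221 on chromosome 13, from 0 % on both to 34.8 and 51.2 %. The study followed up Pitx1 at a position hypermethylated in βerko MEFs, which is not among these 18, as 0 of them gained fully on either strand. The CpG at 55926819 on chromosome 13 had 100 and 97.7 % in wt (35 and 43 reads) and 2.17 and 1.32 % in βerko MEFs. Esrrg, an orphan nuclear receptor related to oestrogen receptors, fell on both strands at 11 of 26 CpGs, at an intronic group from 189475828 to 189475893 on chromosome 1, and rose on both at 3, all in promoters. Cgref1 averaged 20.6 % on the plus and 4.43 % on the minus strand in βerko MEFs, where 3 of its 11 CpGs were discordant. The 10 genes together had 194 CpGs, of which 107 fell on both strands. They were chosen for this loss.

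Gains on both strands were scattered, with Lhx2, a LIM homeobox gene, at 2 CpGs and 29 genes at 1 each. The Lhx2 CpGs at 38211685 and 38211702 on chromosome 2 had 14.0 to 15.8 % in wt and 91.5 to 98.0 % in βerko MEFs. Lhx2 also held losses, and 6 of its 15 CpGs fell on both strands while 5 rose. Hoxd3 rose on both strands at 10 of 24 CpGs and fell at 1. The CpG of Gm11158, the only such CpG of this gene, went from 18.2 and 9.09 % to 90 and 90 %, and of the 12 CpGs of Gpatch3 1 rose on both strands and 0 fell.

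Other genes that the study followed up had 0 full changes on both strands. Dyx1c1 was nearly unmethylated, with means of 2.44 and 1.77 % over its 6 CpGs in wt and 0 % in βerko MEFs. The study followed up Dyx1c1 at a position hypomethylated in βerko MEFs. That position is not among these 6, as 0 of them lost fully on either strand. Hoxa11 had means of 0.426 and 1.38 % in wt, and 6.53 and 12.4 % in βerko MEFs, over 5 CpGs. At Tnfaip2 both strands rose by at least 20 points at 1 of 4 CpGs, and its means were 58.1 and 60.4 % in wt, and 65.0 and 61.1 % in βerko MEFs. Trim2 rose at 1 and fell at 1 of 13 CpGs, with means of 25.6 and 26.1 % in wt, and 26.0 and 24.6 % in βerko MEFs. Fstl4 rose at 1 of 6 CpGs, at 52578039 on chromosome 11 in a promoter, from 71.4 and 6.25 % to 95.7 and 100 %.

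Hox genes, which pattern the body axis, had 223 CpGs covered on both strands in 36 of 39 genes. Both strands fell by at least 20 points at 45 of them, 20.2 % against 7.73 % of all CpGs covered on both strands, and rose at 30, where 2.9 % of all CpGs did. The medians over all 223 were 0 points on the plus and -0.12 on the minus strand. Hoxa9 and Hoxa10, expressed in limb and haematopoietic cells, were unmethylated on both strands in wt, with means up to 0.215 %. In βerko MEFs Hoxa9 averaged 28.6 % on the plus and 17.4 % on the minus strand, and Hoxa10 23.6 and 21.1 %. The study followed up both genes at positions hypermethylated in βerko MEFs. These positions are not among the CpGs here, as 0 CpGs of either gene gained fully on either strand. Hoxd12 rose on both strands at 3 of 5 CpGs.

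Strand-discordant CpGs were 41 of the 223 in wt (18.4 %, Wilson interval 13.9 to 24.0 %), and 40 were in βerko MEFs (17.9 %), above the 9.26 and 7.93 % of all CpGs. The Hox genes had more CpGs at middle levels, and of the 72 there in wt 31 were discordant (43.1 %, 32.3 to 54.6 %), beside 38.9 % of all CpGs there. At Hoxb7 the minus strand was higher at 7 of 7 discordant CpGs in wt and at 4 of 4 in βerko MEFs, with gene means of 27.9 and 46.7 % in wt, and 8.52 and 27.4 % in βerko MEFs. These 7 came from 5 fragments or sites. A site and a fragment that it bounds share reads, so that they are not independent. Of the 7, 3 were discordant in both libraries, and both strands fell by at least 20 points at 4 of the gene's 13 CpGs. The strand difference at 96147493 on chromosome 11, with 50 and 85.7 % in wt and 0 and 83.3 % in βerko MEFs, was larger in βerko MEFs, and the one at 96148414, with 15.5 and 67.7 % in wt and 5.05 and 16.7 % in βerko MEFs, was smaller. At Hoxd10, 0 of 9 CpGs were discordant in wt, and 6, from 4 fragments or sites, were in βerko MEFs, where the plus strand averaged 22.1 % and the minus strand 46.3 %. The CpG at 74530850 on chromosome 2 went from 91.7 and 85 % to 5.62 and 90 %, and the CpG at 74530898 from 94.7 and 95 % to 100 and 15.6 %. Hoxb7 and Hoxd10 were singled out after their values had been seen.

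**Figure D5:**
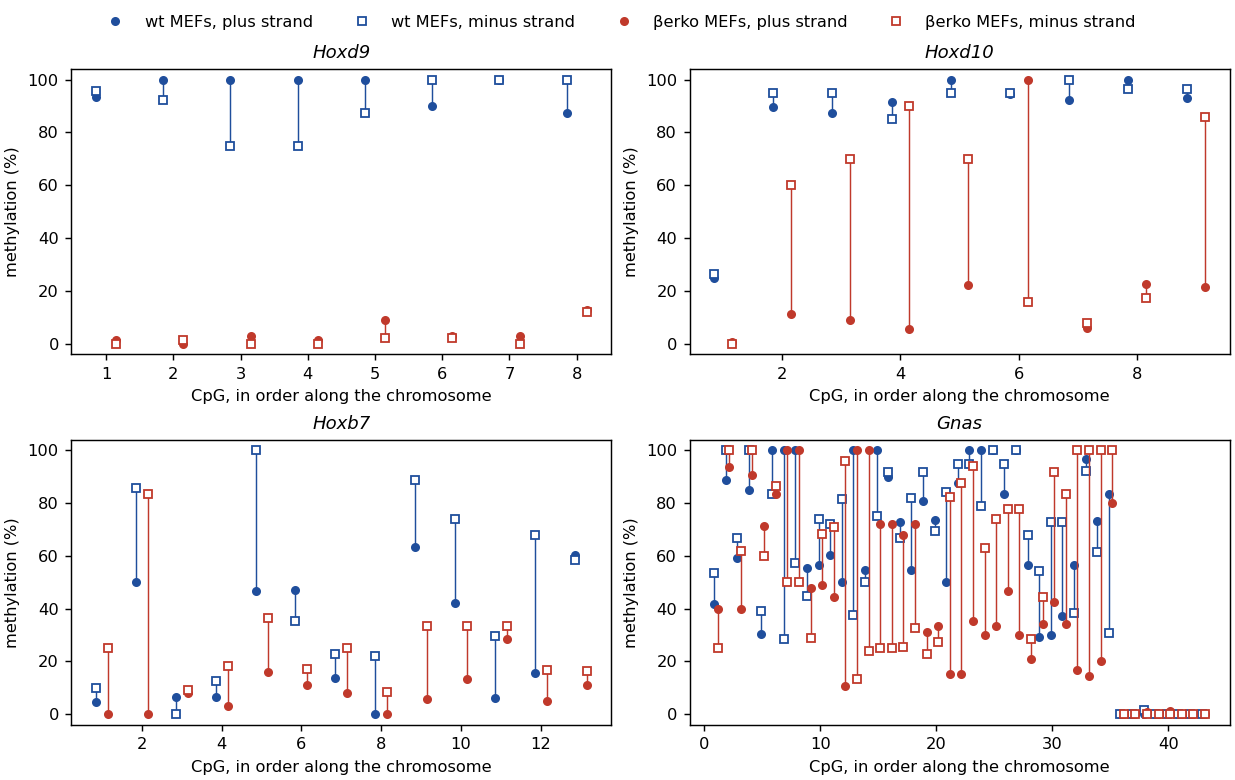
Methylation (%, y axis) of each CpG covered on both strands in Hoxd9, Hoxd10, Hoxb7 and Gnas, in order along the chromosome (x axis), in wt (blue) and βerko MEFs (red), with filled circles for the plus strand, open squares for the minus strand and a line joining the strands of a CpG. In Hoxd9 both strands fall together, in Hoxd10 strands part in βerko MEFs at 6 of 9 CpGs, in Hoxb7 the minus strand is above the plus strand at the 7 discordant CpGs of wt, and in Gnas the number of discordant CpGs goes from 12 to 24 of 43.

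Imprinted genes, which carry methylation on the allele of 1 parent, had 93 CpGs in 19 of 30 genes. Discordant were 20 in wt (21.5 %, Wilson interval 14.4 to 30.9 %), whereas in βerko MEFs 40 were (43.0 %, 33.4 to 53.2 %), beside 9.26 and 7.93 % of all CpGs covered on both strands. Among CpGs with a mean from 20 to 80 % these were 15 of 40 (37.5 %, 24.2 to 53.0 %) and 38 of 58 (65.5 %, 52.7 to 76.4 %), beside 38.9 and 39.4 % of all CpGs at these levels, so that the share in wt was near that of all CpGs. Gnas, a complex locus that codes for the G protein alpha subunit, contributed most, with 12 of 43 CpGs in wt and 24 in βerko MEFs. Those in βerko MEFs came from 13 fragments or sites, with the minus strand higher at 16 CpGs and the plus strand at 8. Some of these sites bound a counted fragment and share its reads. At 174125814 on chromosome 2 both strands were methylated in wt, at 87.5 and 94.7 %, and in βerko MEFs the plus strand had 15.4 % and the minus strand 87.5 %. Further along, at 174154020, the strands had 96.7 and 92.3 % in wt, and 14.3 and 100 % in βerko MEFs. The 8 CpGs from 174155342 to 174156004 were unmethylated, with at most 1.41 % on any strand of either library. At Grb10, a growth factor receptor adaptor gene, both strands fell at 8 of 17 CpGs, and the minus strand was higher at all 4 discordant CpGs in wt and all 5 in βerko MEFs. These came from 4 fragments or sites in each library.

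Of the enzymes of DNA methylation and demethylation, 9 of 15 had such CpGs, 72 in all, and 1 was discordant in wt and 1 in βerko MEFs (1.39 % each, beside 9.26 and 7.93 % of all CpGs), both in Dnmt1, the maintenance methyltransferase. The latter, at 20716561 on chromosome 9 with 80 and 100 %, lies at an MspI site beside a fragment of 4 bases. At middle levels were only 2 of the 72 CpGs in wt, 1 of them discordant, and 0 in βerko MEFs. The low shares therefore cannot be told apart from an effect of these levels. In this group 1 CpG fell on both strands, in Dnmt3a, a de novo methyltransferase, and 0 rose. Tdg, the thymine DNA glycosylase followed up in the study, had 1 CpG with 0 % on both strands of both libraries. Esr2, the targeted gene, had 2 CpGs with at most 6.45 % on any strand of either library, and these values are no check of the knock-out.

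Markers of fibroblasts and of pluripotent or germ cells were examined for the label of the cells, although methylation does not measure expression. The 19 CpGs at 7 of 10 fibroblast markers averaged 55.2 and 54.7 % on the strands in wt and 52.3 and 53.6 % in βerko MEFs. Discordant were 0 of the 19 in either library (upper Wilson limit 16.8 %), beside 9.26 and 7.93 % of all CpGs. At middle levels were 0 of the 19 in wt and 2 in βerko MEFs. The absence of discordant CpGs here cannot be told apart from an effect of level and small number. At 5 of 8 markers of pluripotent or germ cells, 29 CpGs averaged 80.6 and 74.1 % in wt, and 68.1 and 60.8 % in βerko MEFs. Discordant were 6 of them in wt and 11 in βerko MEFs, beside 9.26 and 7.93 % of all CpGs. Of the CpGs at middle levels, 6 of 11 were discordant in wt and 5 of 7 in βerko MEFs, beside 38.9 and 39.4 % of all CpGs there. The discordant CpGs included 5 and 5 of 10 CpGs at Dazl, an RNA-binding protein gene of germ cells, and 1 and 5 of 9 at Tdrd1. Those at Dazl came from 3 fragments or sites in wt and 2 in βerko MEFs, and those at Tdrd1 from 1 and 4. CpGs of a fragment share reads, so that these are not independent observations. At 50432203 on chromosome 17, in Dazl, the plus strand had 60 % in wt and 87.5 % in βerko MEFs, and the minus strand 38.5 and 3.57 %.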

How the data were processed

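RRBS libraries of wt and βerko MEFs, 1 each from pooled DNA of 3 batches, were analysed. For mapping, the authors used the Genomatix mining station, and the labels name CASAVA 1.4 and mm9. The authors deposited the percent methylation of every cytosine seen in both libraries (no coverage is given), and DMP tables that hold read counts for each library, from 4 reads upwards. Columns of annotation and comparison by the authors were not used. All 826937 positions were CpG cytosines of NCBIM37.

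Strands were paired as p and p + 1. MspI sites and fragments were located in NCBIM37, and genes and features were taken from GENCODE. A position changed fully when it passed 20 and 80 % in opposite directions. Within a library, read counts of strands were compared with Fisher's exact test (two-sided), with Benjamini-Hochberg adjustment and a threshold of 0.05. On simulated reads the test found 161 of 200 changed CpGs, 77 of 77 with at least 20 reads, and gave 1 false call. The simulated strand differences were far larger than those at the 313 CpGs tested. There the largest was 19.05 points in wt and 18.52 points in βerko MEFs. The simulation therefore does not show how often differences of that size would be found. Intervals are Wilson intervals at 95 %.

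CpGs named were 8 with the largest strand difference kept in both libraries (ties by genome order), the 6 with the largest opposite changes, and the 5 deepest full losses and gains on both strands. Genes named were the 10 with the most full losses and the 5 with the most full gains, the genes followed up in the study and members of lists. Members and lists were chosen with earlier results of these data known. The separation of MspI sites beside short fragments was chosen after seeing the data. Software was Python 3.11.15, with SciPy 1.17.1, NumPy 2.4.6 and pandas 2.3.3.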

Additional observations from a re-analysis of the deposited data

How the results depend on the processing

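The share of strand-discordant CpGs depended mostly on its definition. In wt it was 19.7 % at 10 points and 3.28 % at 40 points of difference between strands, and in βerko MEFs 16.3 and 3.38 %, so that the libraries were close at 40 points. Among CpGs with any value from 20 to 80 % it was 30.0 % in wt and 25.4 % in βerko MEFs. It was 8.95 % at MspI sites and 9.55 % at the other CpGs in wt, and 8.86 % in wt and 7.595 % in βerko MEFs without MspI sites beside fragments shorter than 36 bases, a setting chosen after seeing the data. The mean change of the minus strand was -3.41 points at MspI sites and -3.10 points elsewhere. CpGs with a full loss on both strands made up 21.8 % at thresholds of 10 and 90 %, and those with a full gain 8.33 % without MspI sites. At an unadjusted p, 2 CpGs in wt and 8 in βerko MEFs differed between strands, against 0 after adjustment. The cause of these shifts was not tested. All other values tried, among them those for autosomes, for DMPs with more than 4 reads, for thresholds of 30 and 70 % and for higher read minimums, moved by less than the interval of the main value. Removal of repeats was not run, as the reference used does not mark them. No paired analysis was possible because each genotype had 1 library. Depth outside DMPs is unknown, so that counting error at strand-discordant CpGs cannot be stated.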
